A study of Mus musculus with 17 samples.

Results

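The Nfe2l2 antioxidant response genes described here are 10 genes of mouse skeletal muscle: Nfe2l2, Keap1, Nqo1, Srxn1, Hmox1, Gclc, Gclm, Txnrd1, Prdx1 and Slc7a11. Every array probe annotated to one of these symbols was taken, which gave 18 of the 25697 probes on the array and 10 of 16593 named genes. Keap1 had 4 probes, Srxn1 had 3, Nfe2l2, Nqo1 and Prdx1 had 2 each, and the other genes had 1 each. For a gene with several probes, probe 1 is the one with the highest mean over all arrays.

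RNA came from the tibialis anterior, a muscle of the lower hindlimb, of male mice aged 8 weeks, taken at day 3 and hybridised to 17 bead arrays, 1 array per sample. In the transfection experiment, muscles of C57BL/6 mice received a plasmid for p53, a transcription factor of the stress response, in 4 samples, or a control plasmid in 4 samples. In the immobilization experiment, the hindlimb was immobile in p53 mKO mice in 3 samples, immobile in littermate control mice in 3 samples, and mobile in littermate control mice in 3 samples. The labels name no strain for these mice, do not spell out mKO or the driver of the deletion, and leave it unstated whether any limbs share a mouse, and p-values measure only the spread between these arrays. Trp53, the gene of p53, is on no probe listed here, and its own level was therefore not checked in either experiment.

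Nfe2l2 encodes the transcription factor NRF2, and Keap1 encodes the adaptor protein that holds NRF2 for degradation by the proteasome. When oxidants or electrophiles modify KEAP1, NRF2 accumulates, pairs with a small MAF protein and binds antioxidant response elements near its target genes. Those targets recycle peroxiredoxins (Srxn1), reduce peroxides (Prdx1) and thioredoxin (Txnrd1), make glutathione (Gclc, Gclm and the cystine importer Slc7a11), reduce quinones (Nqo1) and break down heme (Hmox1). A muscle also holds resident and infiltrating macrophages, in which Hmox1 is a well-known stress gene.

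The promoter stretches below are shown because they belong to members whose array values are described next and hold letters of the antioxidant response element or of the related AP-1 site. They come from RefSeq windows on GRCm38.p6 that run from 250 bases before to 50 bases after each start. Of the 10 genes, 8 matched, with 10 windows in all, and Hmox1 and Gclc were not matched. Sequences read 5′ to 3′ on the gene's strand, and capitals mark a match on either strand to TGACNNNGC or TGAGNNNGC, the core of the response element in its C and G forms, or to TGANTCA, the AP-1 site.
Srxn1: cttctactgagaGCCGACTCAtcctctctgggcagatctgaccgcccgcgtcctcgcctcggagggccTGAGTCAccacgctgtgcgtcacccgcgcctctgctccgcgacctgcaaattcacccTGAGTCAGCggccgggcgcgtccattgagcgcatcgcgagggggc
Prdx1: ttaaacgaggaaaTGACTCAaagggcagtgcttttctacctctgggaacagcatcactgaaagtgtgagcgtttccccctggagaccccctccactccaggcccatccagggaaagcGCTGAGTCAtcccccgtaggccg
Gclm: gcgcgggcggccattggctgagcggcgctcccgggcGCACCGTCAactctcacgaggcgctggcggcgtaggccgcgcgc
Nfe2l2: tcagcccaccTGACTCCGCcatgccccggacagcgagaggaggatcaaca
The Srxn1 stretch is chr2:152105354-152105523 on the plus strand, positions -170 to -1 from the start, and its last capitals join an AP-1 site to a G-form core at -45 to -37. Prdx1 is shown at chr4:116685349-116685488 on the plus strand, positions -250 to -111, where a C-form core at -133 to -125 on the opposite strand overlaps an AP-1 site. The Gclm stretch, chr3:122245387-122245466 on the plus strand, has a C-form core on the opposite strand at -134 to -126. For Nfe2l2 itself, chr2:75704864-75704913 on the minus strand, a C-form core lies at -240 to -232. The C form was found in 5 of the 10 member windows and in 12.4% of all 32851 windows. The G form, whose search was added after the data were seen, was found in 3 of the 10 and in 17.6% of all windows, and TGANTCA in 2 of the 10 and in 7.81%. No letters of any of these 3 motifs were found in the windows of Keap1 or Nqo1. Matches are a description of these letters and not a measure of binding.

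Values are log2 intensities as deposited, which run from 8.21 to 15.61, and array medians lie between 8.48 and 8.5, so a probe near 8.3 or 8.4 is close to the lower end of the scale. Differences between groups were tested probe by probe with limma, and a probe is said to have risen or fallen when its p-value, adjusted by the Benjamini-Hochberg method over all probes tested, was under 0.05. Of the 18 member probes, 16 passed the filter on dim probes in the immobilization fit and 15 in the fit of transfected muscles. Slc7a11 (ILMN_2948143) read 8.30 to 8.44 over the 17 arrays and Nfe2l2 probe 2 (ILMN_1214369) read 8.29 to 8.35, and neither passed in any fit. Nqo1 probe 2 (ILMN_2766386) read 8.34 to 8.46 and passed in the immobilization fit alone. Markers of skeletal muscle fibres were bright in every group, as 9 fibre genes with a probe averaged 15.12 to 15.25 in p53 plasmid, 15.24 to 15.28 in control plasmid, 15.26 to 15.37 in immobile p53 mKO, 15.20 to 15.31 in immobile control and 15.26 to 15.36 in mobile control muscles. Macrophage markers differed more, with means over 10 genes of 11.998 to 12.165 in p53 plasmid, 10.88 to 11.16 in control plasmid, 9.87 to 10.43 in immobile p53 mKO, 9.83 to 11.23 in immobile control and 9.45 to 9.53 in mobile control muscles. The fibre means lie near the highest value of 15.61, where a difference may be understated, so they do not show steady fibre content. In whole muscle, fewer cells of a type and less RNA per cell cannot be told apart.

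**Figure D1:**
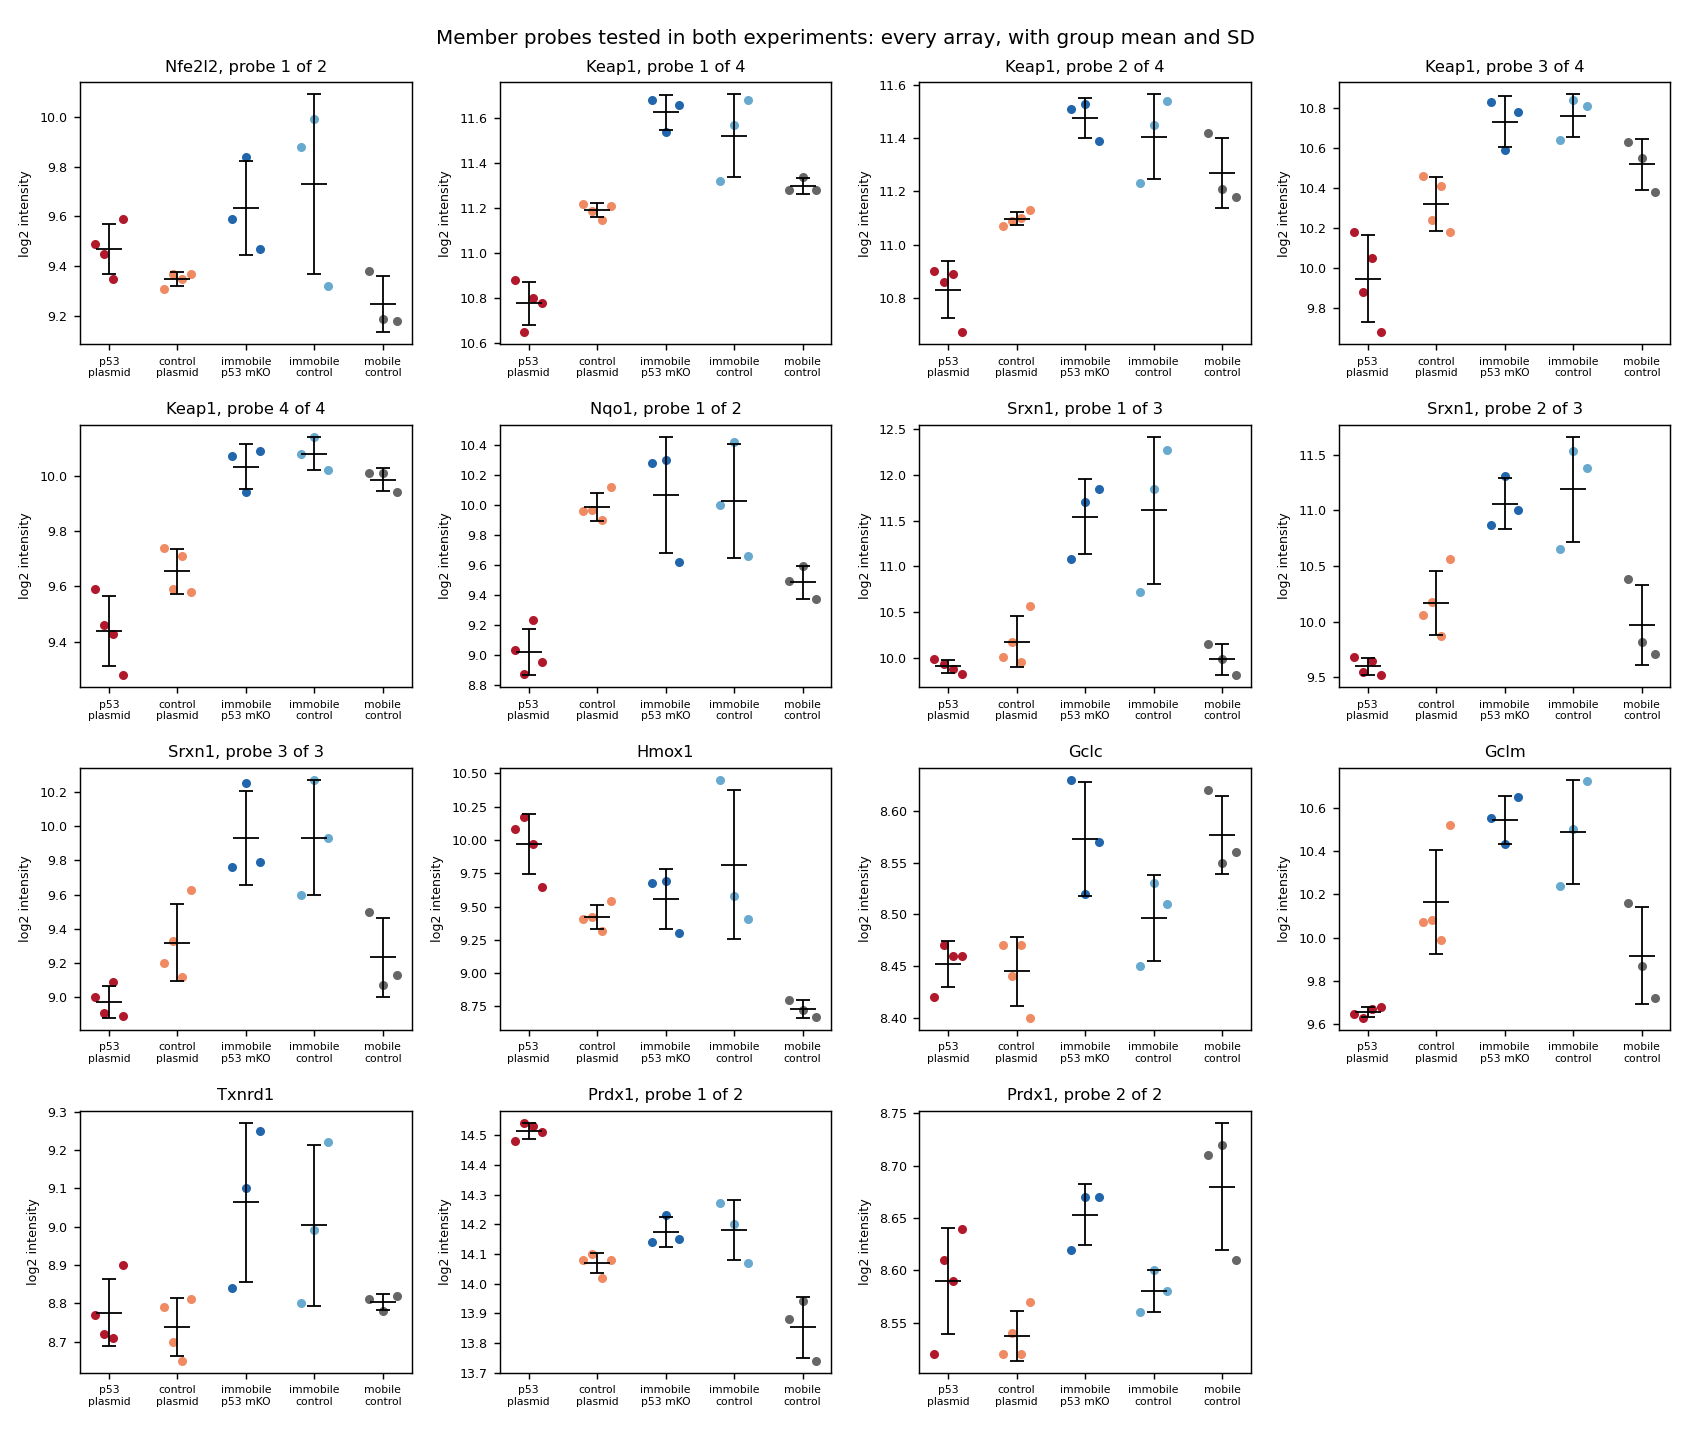
Deposited log2 intensity of the 15 member probes tested in both experiments, 1 panel per probe, with every array as a point and the mean with its SD as a bar, and groups from left to right p53 plasmid, control plasmid (4 arrays each), immobile p53 mKO, immobile control and mobile control (3 arrays each). Srxn1 stands highest in both immobile groups, Nqo1 probe 1 is lowest in p53 plasmid muscles at 8.87 to 9.23, and Prdx1 probe 1 is highest there at 14.48 to 14.54.

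The first comparison asked what immobilization does to these genes in control mice. Srxn1, Hmox1, Gclm and Prdx1 rose in immobile control limbs against mobile control limbs, by 1.25-fold to 3.10-fold, and no member fell. Higher calls were made for 5 of the 16 member probes tested, or 31.2%, against a background of 4.08% of all 16036 probes, 10.1% of which passed in either direction. Lower calls were made for 0 members, or 0%, by limma at the adjusted threshold, with 1 member lower at an unadjusted p under 0.05, against a background of 6.06%. Groups did not overlap for 9 higher member probes, or 56.2%, against 14.8% of all probes, and for 2 lower ones, or 12.5%, against 15.1%. Srxn1 counts more than once among the higher calls, and Srxn1 and Keap1 among the higher probes without overlap. These are therefore counts of probes and not of genes. The median member difference was 0.29 (log2), against 0 over all probes. The members were chosen with earlier results of these data known. Shares set beside the background, here and in later comparisons, therefore describe these probes and are not independent evidence.

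Srxn1 encodes sulfiredoxin, which restores over-oxidised peroxiredoxins. Its probe 1 (ILMN_2677772) read 10.72, 11.85 and 12.27 in immobile control limbs, against 10.15, 9.99 and 9.81 in mobile control limbs. The groups did not overlap, and the immobile control arrays spread widely, with array 1 nearest to the mobile ones. The difference was 1.63 ± 0.38 (log2, SE), or 3.10-fold, with a limma adjusted p of 0.0327. Probe 2 (ILMN_2667346) read 10.65, 11.53 and 11.38 in immobile control limbs, against 10.38, 9.82 and 9.71 in mobile control limbs, a rise of 1.22 ± 0.26 (2.32-fold, limma adjusted p = 0.0253). Probe 3 (ILMN_1229994) lay 0.70 ± 0.20 higher and did not pass (limma adjusted p = 0.0734), though it passed without immobile control array 1 (0.0401), with all 17 arrays in 1 fit (0.0155) and with array weights (0.00528). Over the 17 arrays the 3 Srxn1 probes tracked one another with Pearson r of 0.910 to 0.983, a description in which the probes share each array's RNA.

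Hmox1, heme oxygenase 1 (ILMN_2788073), read 10.45, 9.58 and 9.41 in immobile control limbs, against 8.80, 8.72 and 8.67 in mobile control limbs. All 3 immobile arrays stood above the mobile ones, and array 1 stood apart within its group. The rise was 1.08 ± 0.25 (log2, SE), or 2.12-fold (limma adjusted p = 0.0324), and 2.35 on the log2 scale with background subtracted. That same array had the highest mean of the macrophage markers, 11.23, against 10.245 and 9.83 in immobile control arrays 2 and 3. Of the 8 macrophage genes tested, Mrc1 alone passed in this comparison, at 1.29 higher, and all 8 had a higher mean in immobile control limbs, by 0.55 to 1.77. The part of macrophage RNA in the Hmox1 difference was not tested.

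Gclm, the modifier subunit of the enzyme that makes gamma-glutamylcysteine for glutathione (ILMN_1256354), read 10.24, 10.50 and 10.72 in immobile control limbs, against 10.16, 9.87 and 9.72 in mobile control limbs. The groups did not overlap, though the lowest immobile and the highest mobile array lay close. Gclm rose by 0.57 ± 0.15 (1.48-fold, limma adjusted p = 0.0464). The catalytic subunit Gclc (ILMN_2608016) read 8.45, 8.53 and 8.51 in immobile control limbs, against 8.62, 8.55 and 8.56 in mobile control limbs, and did not pass (-0.08 ± 0.04, limma adjusted p = 0.295).

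Prdx1, a peroxiredoxin that reduces peroxides, is bright on probe 1 (ILMN_1223738). It read 14.27, 14.20 and 14.07 in immobile control limbs, against 13.88, 13.94 and 13.74 in mobile control limbs. Its rise was small and tight, 0.33 ± 0.07 (1.25-fold, limma adjusted p = 0.0221). Probe 2 of Prdx1 (ILMN_2989706), a dim probe at 8.52 to 8.72 over the 17 arrays, lay -0.10 from mobile control and did not pass (limma adjusted p = 0.167). The probes disagree, as their Pearson r over the 17 arrays was -0.21.

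The regulators themselves did not pass in this comparison when all 9 arrays were fitted with equal weights. Nfe2l2 probe 1 (ILMN_1224128) read 9.88, 9.99 and 9.32 in immobile control limbs, against 9.38, 9.19 and 9.18 in mobile control limbs, 0.48 ± 0.18 higher (limma adjusted p = 0.138). Immobile array 3 fell within the mobile range, and without it Nfe2l2 was 0.69 higher and passed (limma adjusted p = 0.0145). Nfe2l2 also passed with all 17 arrays in 1 fit (0.0280) and with array weights (0.00446). The 4 Keap1 probes lay 0.09 to 0.24 higher, with limma adjusted p-values of 0.143 to 0.437. Keap1 probe 1 passed without immobile control array 1 (0.33 higher, limma adjusted p = 0.0179) and with array weights (0.0143), and Keap1 probe 3 with array weights (0.0281). Nqo1 probe 1 (ILMN_2726371), of the quinone reductase that is a standard NRF2 target, read 10, 10.42 and 9.66 in immobile control limbs, against 9.49, 9.59 and 9.37 in mobile control limbs. The Nqo1 groups did not overlap, but the difference of 0.54 ± 0.23 did not pass (limma adjusted p = 0.194), and it was 0.35 without immobile control array 2. With array weights Nqo1 passed (0.00626). Txnrd1, thioredoxin reductase 1 (ILMN_2484465), read 8.80, 8.99 and 9.22 in immobile control limbs, against 8.81, 8.78 and 8.82 in mobile control limbs, 0.20 ± 0.12 higher without passing (limma adjusted p = 0.382). Its difference was 0.30 without immobile control array 1 and 0.092 without array 3.

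These 5 calls were close to the threshold, and leaving out any one of the 6 arrays ended some of them. The member probes that passed numbered 0 when either immobile control array 2 or mobile control array 3 was dropped. They numbered 1 for mobile control array 2, 2 for mobile control array 1 and 3 for immobile control array 3. Those 3 included Nfe2l2 as a gain, while Srxn1 probes 1 and 2 and Gclm lost their calls. Dropping immobile control array 1 ended the call of Prdx1 (limma adjusted p = 0.0554) and gave 6 members higher, with others gained. Each of the 5 kept its direction in these fits, and the highest limma adjusted p was 0.118 for Srxn1 probe 1, 0.105 for Srxn1 probe 2, 0.115 for Hmox1, 0.159 for Gclm and 0.0707 for Prdx1. With no filter on dim probes Srxn1 probe 1, Hmox1 and Gclm did not pass (limma adjusted p = 0.0583, 0.0570 and 0.0777), and with background subtracted Gclm and Prdx1 did not (0.0609 and 0.138).

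**Figure D2:**
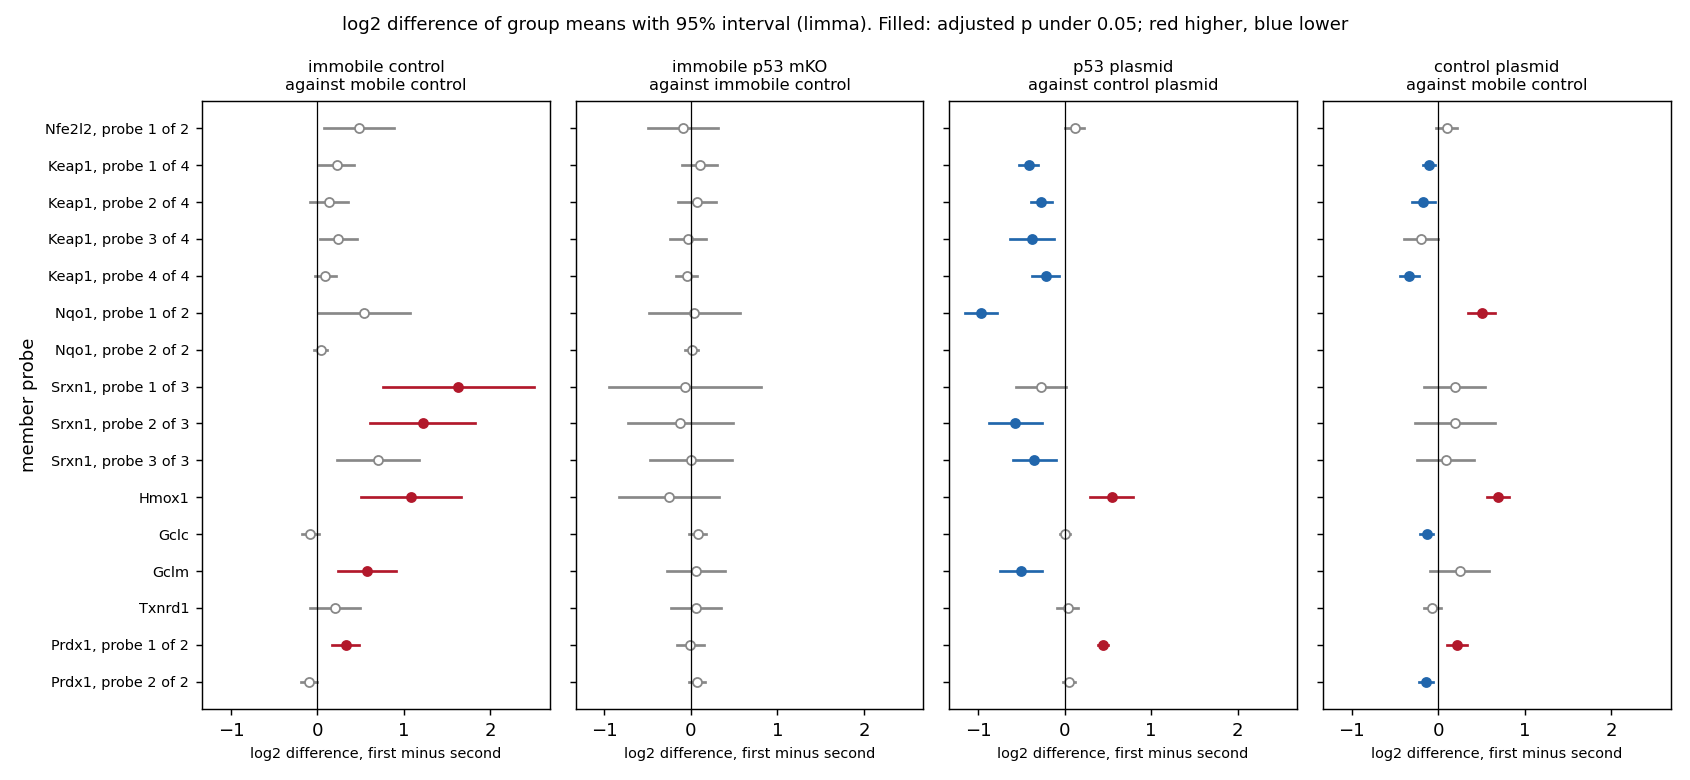
Log2 difference of each member probe with its 95% interval from limma, in 4 panels for immobile control against mobile control, immobile p53 mKO against immobile control, p53 plasmid against control plasmid, and control plasmid against mobile control. Filled points have an adjusted p under 0.05, which holds for 5, 0, 10 and 8 member probes in these panels.

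The next comparison asked whether p53 mKO mice differ from littermate controls when both are immobile. No member probe passed in either direction, and percent called over all probes was 0 as well, for higher and for lower calls by limma. At an unadjusted p under 0.05 there were 0 of 16 member probes and 473 of all 16036. Hmox1 read 9.68, 9.69 and 9.30 in immobile p53 mKO limbs, against 10.45, 9.58 and 9.41 in immobile control limbs. The groups overlapped, with immobile control array 1 above the rest, and the difference was -0.26, with a 95% interval of -0.84 to 0.32. For Srxn1 probe 1, immobile p53 mKO limbs read 11.08, 11.70 and 11.85, inside the range of immobile control limbs, and the difference was -0.07 (-0.94 to 0.80). In this fit, which did not pair the arrays, the intervals were -0.28 to 0.39 for Gclm and -0.49 to 0.57 for Nqo1 probe 1. They were -0.50 to 0.31 for Nfe2l2 probe 1 and -0.16 to 0.15 for Prdx1 probe 1. Each interval holds the differences compatible with these arrays, at 3 arrays a group, and is not a limit of detection. Dim Prdx1 probe 2 was the one member whose groups did not overlap, at 8.62, 8.67 and 8.67 in immobile p53 mKO limbs and 8.56, 8.60 and 8.58 in immobile control limbs. That is 6.25% of member probes, against 2.79% of all probes higher without overlap. Lower without overlap were 0 member probes, against 2.61%.

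Arrays of the same replicate number deviated together in these 2 groups, so the difference was also taken number by number. Hmox1 differed by -0.77, 0.11 and -0.11 in numbers 1, 2 and 3 (immobile p53 mKO minus immobile control). Srxn1 probe 1 differed by 0.36, -0.15 and -0.42, and Nqo1 probe 1 by 0.28, -0.12 and -0.04. The signs were mixed for each of these 3 probes. Among the 16 probes tested, Prdx1 probe 2 (0.06, 0.07 and 0.09) and Txnrd1 (0.04, 0.11 and 0.03) had 1 sign in all 3 numbers. With the number as a block, limma still called 0 members, the lowest unadjusted p among them was 0.120, and the lowest adjusted p was 0.996.

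Immobile p53 mKO limbs set against mobile control limbs gave 4 of 16 member probes higher, or 25%, against a background of 3.5%. The series has no mobile p53 mKO limbs, so genotype and immobilization differ together here and cannot be told apart. Lower calls were 0 of 16 by limma, also at an unadjusted p under 0.05, against a background of 5%. This comparison shares the mobile control arrays with the one on littermate controls, so its values are given beside those and are not a second sample of them. Srxn1 probe 1 was 1.56 ± 0.38 higher in immobile p53 mKO limbs (2.95-fold, limma adjusted p = 0.0434), against 1.63 in immobile control limbs. Srxn1 probe 2 rose by 1.09 ± 0.26 (adjusted p = 0.0425), Gclm by 0.63 ± 0.15 (adjusted p = 0.0369) and Prdx1 probe 1 by 0.32 ± 0.07 (adjusted p = 0.0277) in the same limma fit. Hmox1 was 0.83 ± 0.25 higher and did not pass (limma adjusted p = 0.0902), nor did Nqo1 probe 1 at 0.58 (limma adjusted p = 0.181). Of 14 alternative limma fits, Hmox1 did not pass in 10. It passed with background subtracted (adjusted p = 0.0231), all 17 arrays in 1 fit (0.0169), array weights (0.00439) and the number as a block (0.0461). Nqo1 probe 1 did not pass in 12 of 14, and passed with array weights (0.0173) and the number as a block (0.0379). Keap1 probe 1 (ILMN_1258406) read 11.68, 11.54 and 11.66 in immobile p53 mKO limbs, against 11.28, 11.34 and 11.28 in mobile control limbs, 0.33 ± 0.09 higher without passing (limma adjusted p = 0.0619). It did not pass in 12 of 14 alternatives, and passed with all 17 arrays in 1 fit (limma adjusted p = 0.00987) and with array weights (0.0092). Groups did not overlap for 11 higher member probes, or 68.8%, against 17.2% of all probes, and for 0 lower ones, against 16.4%. All probes of Srxn1 and of Nqo1 are among these higher ones, so fewer genes than probes are counted. Calls in either direction covered 8.5% of all probes. With 1 array left out at a time, 0 to 2 members passed, and each of the 6 arrays ended the calls of Srxn1 probe 1 and Prdx1 when it was dropped. Without mobile control array 1, Srxn1 probe 2 and Gclm passed, and the other 5 omissions ended both. The highest limma adjusted p was 0.149 for Srxn1 probe 1, 0.159 for Srxn1 probe 2, 0.137 for Gclm and 0.0965 for Prdx1.

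The transfection experiment asked what a p53 plasmid does to these genes. Nqo1, Keap1, Gclm and Srxn1 fell in p53 plasmid muscles against control plasmid muscles, while Prdx1 and Hmox1 rose. Lower calls covered 8 of the 15 member probes tested, or 53.3%, against a background of 28.4% of 15426 probes. Higher calls covered 2 of 15, or 13.3%, against a background of 29.7%, and 58.1% of all probes passed in either direction. The 4 Keap1 probes and 2 of the Srxn1 probes make up 6 of the 8 lower calls, so the count is over 4 genes. With only the brightest probe of each gene, 3 of the 10 members were lower, and Slc7a11 was not tested. Over all genes, each by its brightest probe, 28.7% were lower. The excess over the background therefore rests on genes with several probes. Groups did not overlap for 6 lower member probes, or 40%, against 26.4% of all probes, and for 2 higher ones, or 13.3%, against 27.7%. The member median was -0.27 (log2), against 0 over all probes. It too is a median over probes, in which Keap1 counts 4 times.

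Nqo1 probe 1 had the largest difference among the 15 member probes tested. It read 9.03, 8.87, 9.23 and 8.95 in p53 plasmid muscles, against 9.96, 9.97, 9.90 and 10.12 in control plasmid muscles. The highest p53 plasmid array was far below the lowest control plasmid array. Nqo1 fell by 0.97 on the log2 scale (SE 0.08), 1.96-fold lower (limma adjusted p = 3.5e-05), and by 1.79 with background subtracted. Gclm read 9.65, 9.63, 9.67 and 9.68 in p53 plasmid muscles, against 10.07, 10.08, 9.99 and 10.52 in control plasmid muscles, and fell by 0.51 (SE 0.11, 1.42-fold lower, limma adjusted p = 0.0034). Control plasmid array 4 was high for Gclm, and without it the difference was -0.39 and still passed.

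Keap1 fell on all 4 of its probes. Probe 1 read 10.88, 10.65, 10.80 and 10.78 in p53 plasmid muscles, against 11.22, 11.19, 11.15 and 11.21 in control plasmid muscles. The groups were apart, with a difference of -0.42 ± 0.05 (limma adjusted p = 0.000133). Probe 2 (ILMN_2993267) differed by -0.27 ± 0.05 (limma adjusted p = 0.00218). Probes 3 (ILMN_2707771) and 4 (ILMN_2621346) overlapped between the groups, at -0.38 ± 0.11 and -0.22 ± 0.07 (limma adjusted p = 0.0189 and 0.0245). Their calls rested on single arrays: probe 3 had an adjusted p of 0.0538 without control plasmid array 1 and 0.0521 without array 3. Probe 4 had 0.0667 without control plasmid array 1, 0.0643 without array 3 and 0.054 without p53 plasmid array 3. The 4 probes correlated with one another at 0.884 to 0.957 over the 17 arrays. Nfe2l2 probe 1 read 9.49, 9.45, 9.35 and 9.59 in p53 plasmid muscles, against 9.31, 9.37, 9.35 and 9.37 in control plasmid muscles, 0.12 ± 0.05 higher without passing (limma adjusted p = 0.0611). It passed without p53 plasmid array 3 (0.16 higher, limma adjusted p = 0.0102) and with quantile normalization (0.0497).

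Srxn1 fell on probes 2 and 3. Probe 2 read 9.68, 9.55, 9.65 and 9.52 in p53 plasmid muscles, against 10.06, 10.18, 9.87 and 10.56 in control plasmid muscles, a fall of 0.57 (SE 0.13, 1.48-fold lower, limma adjusted p = 0.00588). On probe 3 the fall was 0.35 (SE 0.11, limma adjusted p = 0.0214), and the call was lost without p53 plasmid array 2 (adjusted p = 0.0525) or array 4 (0.0556), and with all 17 arrays in 1 fit (0.0841). Probe 1 read 9.99, 9.93, 9.88 and 9.82 in p53 plasmid muscles, against 10.01, 10.17, 9.95 and 10.57 in control plasmid muscles. Those groups overlapped, and the difference of -0.27 ± 0.13 did not pass (limma adjusted p = 0.0991). Without control plasmid array 4, the highest there, it was -0.14.

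Prdx1 and Hmox1 went the other way. Prdx1 probe 1 read 14.48, 14.54, 14.53 and 14.51 in p53 plasmid muscles, against 14.08, 14.10, 14.02 and 14.08 in control plasmid muscles. Each group was tight and they were far apart, with a rise of 0.45 ± 0.03 (1.36-fold, limma adjusted p = 1.1e-05). Hmox1 read 10.08, 10.17, 9.97 and 9.65 in p53 plasmid muscles, against 9.41, 9.42, 9.32 and 9.54 in control plasmid muscles, a rise of 0.55 ± 0.11 (1.46-fold, limma adjusted p = 0.0025). In the same comparison the macrophage mean was 11.998 to 12.165 in p53 plasmid muscles, against 10.88 to 11.16 in control plasmid muscles, and 9 of 9 macrophage genes tested rose, by 0.27 to 1.66. Of 9 muscle fibre genes, Ckm (-0.24) and Myh4 (-0.31) fell and none rose. Among other markers tested, 3 of 4 neutrophil and 3 of 6 fibroblast genes rose, and 3 of 4 endothelial genes fell. Over all probes 29.7% were called higher and 28.4% lower, so counts in lists this short are not read as shifts of cell types. The part of any of these cell types in the member changes was not tested. Txnrd1 (0.04, limma adjusted p = 0.578) and Gclc (0.01, limma adjusted p = 0.819) did not pass.

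**Figure D3:**
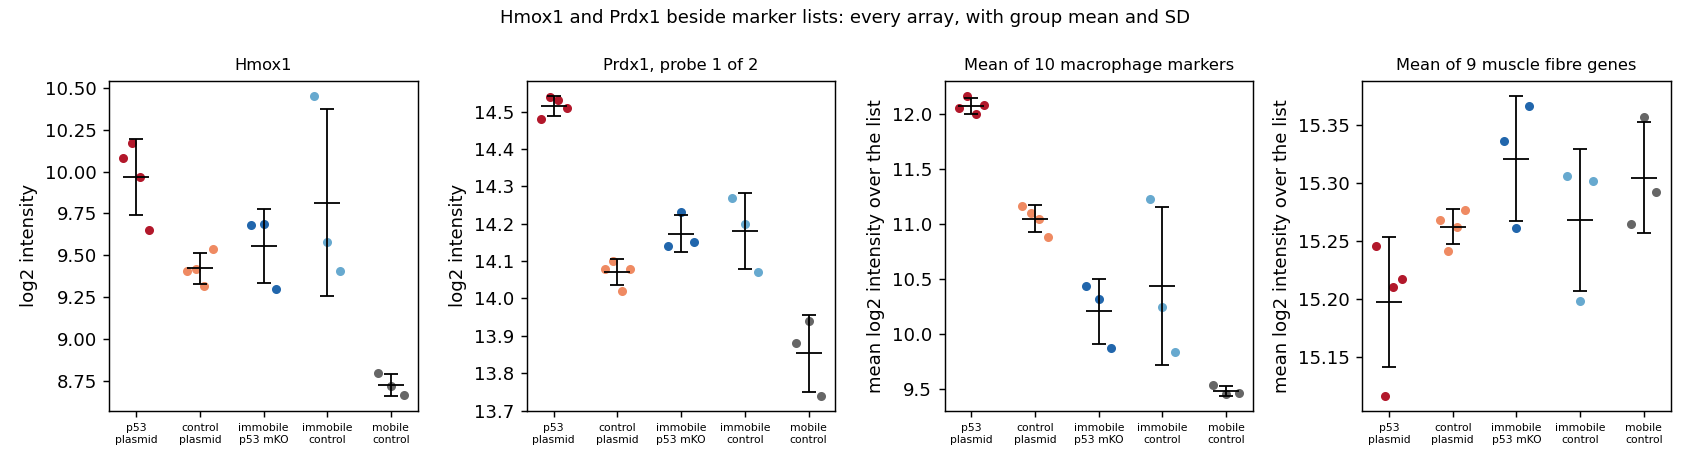
Log2 intensity in every array of Hmox1, Prdx1 probe 1, the mean of 10 macrophage markers and the mean of 9 muscle fibre genes, in p53 plasmid, control plasmid, immobile p53 mKO, immobile control and mobile control muscles from left to right, with points for arrays and bars for the group mean and SD. Immobile control array 1 is highest of its group for Hmox1 (10.45) and for the macrophage mean (11.23).

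Control plasmid muscles were also set against mobile control limbs, so that all groups could be placed on one scale. Transfection, experiment and strain cannot be told apart in this comparison. Higher calls were 3 of 15 member probes, or 20%, against a background of 17.8%. Lower calls were 5 of 15, or 33.3%, against a background of 27.4%. Both shares lay near those of all 15636 probes, 45.2% of which passed in either direction. Groups did not overlap for 3 higher and 5 lower member probes, or 20% and 33.3%, against 19.3% and 30.1% of all probes. The median of all probes was -0.04. Hmox1 was 0.69 ± 0.06 higher in control plasmid muscles (1.62-fold, limma adjusted p = 5.6e-05), Nqo1 probe 1 was 0.50 ± 0.07 higher (1.42-fold, limma adjusted p = 0.000611), and Prdx1 probe 1 was 0.22 ± 0.05 higher (limma adjusted p = 0.0086). Macrophage markers rose with them, 9 of 9 genes tested, and 1 of 4 neutrophil genes rose. Lower calls were made for 4 of 4 endothelial, 2 of 2 erythroid, 2 of 9 muscle fibre and 1 of 6 fibroblast genes. The part of these cell types was not tested. Keap1 probe 4 was lower by -0.33 ± 0.05 (limma adjusted p = 0.00101), and Gclc and Prdx1 probe 2, both dim, by -0.13 and -0.14. Keap1 probes 1 and 2 passed at -0.11 and -0.17. Probe 1 lost its call without control plasmid array 2 or 3 or mobile control array 2 (limma adjusted p of 0.0566 to 0.0815). Probe 2 lost it without any one of the control plasmid arrays or mobile control array 2 (0.0529 to 0.0887), and was -0.0975 without mobile control array 1. Srxn1 lay 0.09 to 0.20 higher on its 3 probes without passing (limma adjusted p of 0.336 to 0.649), and Gclm 0.25 higher (limma adjusted p = 0.204). These values moved with single arrays. Without control plasmid array 4 they were 0.060 for Srxn1 probe 1, 0.067 for probe 2, -0.017 for probe 3 and 0.13 for Gclm. Without mobile control array 1 Srxn1 probe 2 was 0.40 higher and Gclm 0.37 higher, and without mobile control array 3 Srxn1 probe 2 was 0.068 higher and Gclm 0.15 higher.

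Ordered by group mean, Srxn1 probe 1 stood at 11.61 ± 0.80 (SD, n = 3) in immobile control, 11.54 ± 0.41 (n = 3) in immobile p53 mKO, 10.18 ± 0.28 (n = 4) in control plasmid, 9.98 ± 0.17 (n = 3) in mobile control and 9.91 ± 0.07 (n = 4) in p53 plasmid muscles. The ranges of both immobile groups overlapped, as did those of the 3 lower groups, and every immobile array was above every array of the lower groups. Nqo1 probe 1 had another order, with 10.07 ± 0.39 in immobile p53 mKO, 10.03 ± 0.38 in immobile control, 9.99 ± 0.09 in control plasmid, 9.48 ± 0.11 in mobile control and 9.02 ± 0.15 in p53 plasmid muscles. Its first 3 groups overlapped, and mobile control and p53 plasmid arrays each lay below those and apart from each other. Hmox1 averaged 9.97 ± 0.23 in p53 plasmid, 9.81 ± 0.56 in immobile control, 9.56 ± 0.22 in immobile p53 mKO, 9.42 ± 0.09 in control plasmid and 8.73 ± 0.07 in mobile control muscles, where mobile control was clear of every other group and p53 plasmid was clear of control plasmid. The genes whose values tracked Srxn1 probe 1 most closely over the 17 arrays were Impact, Psmc2 and Arpp21 (Pearson r = 0.975, 0.970 and 0.968). For Nqo1 probe 1 they were Sqstm1, Gstp2 and Ino80c (0.935, 0.931 and 0.925). These correlations describe arrays that fall into groups, with probes that share each array, and carry no test.

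Other genes of the pathway were counted from 7 lists with 74 genes, of which 69 had a probe and 66 were tested, each by its brightest probe. Immobile control against mobile control limbs had 7 of the 66 higher and 8 of the 66 lower. Over all genes 4.87% were higher and 6.16% lower, and both shares of the 66 were above these. Sqstm1, whose product p62 binds KEAP1, rose by 0.70 (limma adjusted p = 0.0211), and Blvrb, biliverdin reductase B of heme breakdown, by 0.78 (limma adjusted p = 0.0031). Tfrc, the transferrin receptor, fell by 1.87, and the mitochondrial superoxide dismutase Sod2 fell by 0.42. Thioredoxin (Txn1) rose by 0.39 and transketolase (Tkt) by 0.50. In the list of thioredoxins, peroxiredoxins and sestrins 1 gene was higher and 3 lower of 11 tested, with Msrb1 lower by 0.75 and Glrx by 0.41. Of the glutathione list Gpx3 rose by 0.49, and Gstk1 and Mgst3 fell by 0.55 and 0.39. Akr1b10 fell by 0.69, while Sod1 and Sod3 rose by 0.34 and 0.16. In immobile p53 mKO against immobile control limbs 0 of the 66 genes passed in either direction by limma, and 1 had an unadjusted p under 0.05. In immobile p53 mKO against mobile control limbs 6 of the 66 were higher and 5 of the 66 lower. Over all genes 4.18% were higher and 5.16% lower. The small MAF partner Mafg was among the pathway genes called, 0.80 higher (limma adjusted p = 0.0495).

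In p53 plasmid against control plasmid muscles 22 of the 66 genes were higher and 28 lower, beside 30.4% higher and 28.7% lower over all genes. Sqstm1, chosen for mention after its values were seen, fell by 0.61 (limma adjusted p = 0.00341). Nfe2l1, a relative of Nfe2l2, fell by 0.77 (limma adjusted p = 5.7e-05), and Cul3, the ubiquitin ligase scaffold that KEAP1 joins, by 0.49 (limma adjusted p = 0.000345). Of 20 genes of glutathione synthesis and use 2 were higher and 10 lower. Other lists leaned the other way, with 4 higher and 1 lower of 6 for NADPH supply and 4 and 2 of 6 for heme and iron. Thioredoxins, peroxiredoxins and sestrins had 6 higher and 4 lower of 11, and quinone, carbonyl and conjugation enzymes 4 and 4 of 9. Regulators had 1 higher and 4 lower of 10, and superoxide and peroxide enzymes 1 and 3 of 4. The glutathione transferases Gstk1 and Gstm1 fell by 1.13 and 0.77, while the peroxidase Gpx1 rose by 0.75. Within the thioredoxin and peroxiredoxin list Prdx4, of the endoplasmic reticulum, rose by 0.97, and the mitochondrial Prdx3 and Txn2 fell by 0.74 and 0.62. Transketolase rose by 1.03 and Blvrb by 0.85. In control plasmid against mobile control muscles 19 of the 66 were higher and 21 of the 66 lower, beside 19.3% and 27.5% over all genes.

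**Figure D4:**
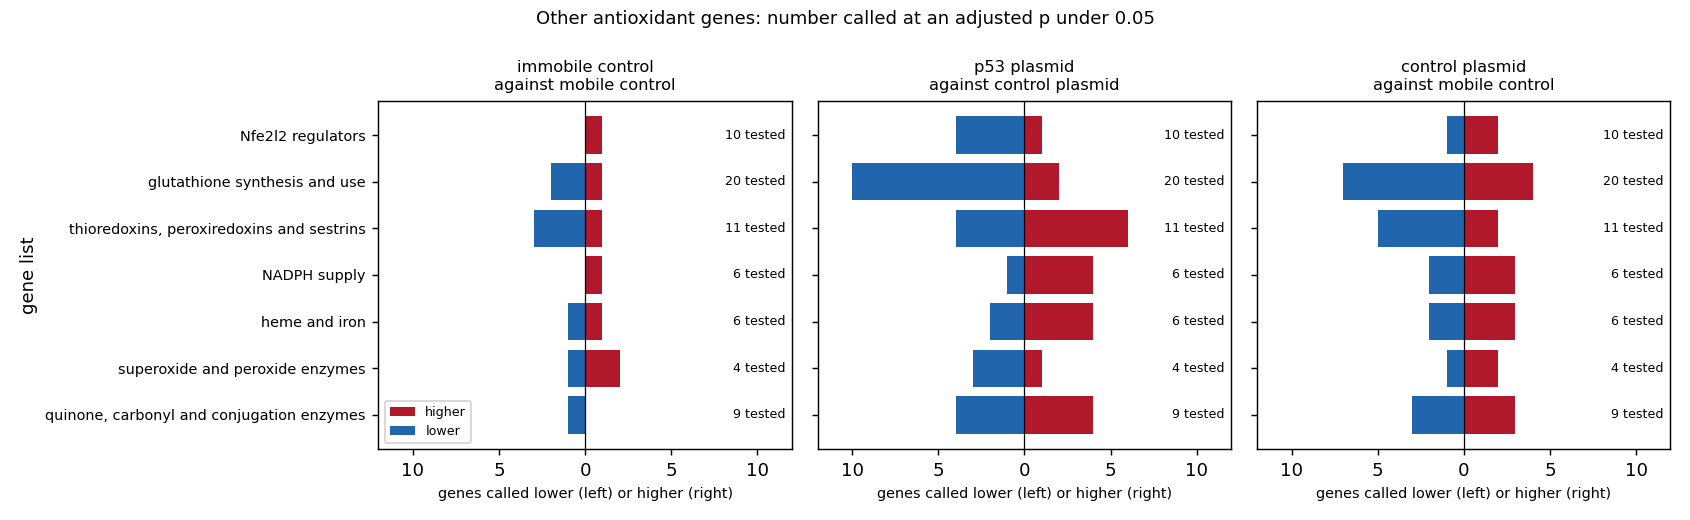
Number of genes that rose or fell by limma (adjusted p under 0.05) in each of the 7 pathway lists, in 3 comparisons with the group named first set against the other. The lists differ in direction in p53 plasmid against control plasmid muscles. There the glutathione list has 2 higher and 10 lower of 20 genes, and the NADPH supply list 4 higher and 1 lower of 6.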

How the data were processed

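RNA of 17 tibialis anterior samples was extracted with TRIzol and columns, amplified and labelled with biotin, per the labels' protocols. The log2 values deposited by the authors were used as given. That they are log2 and normalized between arrays was read from their range and near-identical array medians, and the log base, background correction and method are given by none of the labels. A floor understates the differences of dim probes. Probes were named from the platform annotation, with symbols updated through gene identifiers.

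Each probe was tested on its own by limma 3.58.1 (lmFit, eBayes; R 4.3.3), by group alone, in 1 fit of 9 immobilization arrays (16036 probes), 1 of 8 transfection arrays (15426) and 1 of 7 control plasmid and mobile control arrays (15636). Probes were kept when above their array's 40th percentile on a number of arrays no lower than the size of the fit's smallest group. The Benjamini-Hochberg threshold was 0.05. The number of arrays limits the precision, and no detection values were used here. All member probes are named. From each pathway list up to 3 called genes with the smallest p per comparison were eligible to be named, and 3 genes most like Srxn1 and like Nqo1. The members and lists were chosen with earlier results of these data known. The fits were tested on simulated data.

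Replicate numbers were checked for pairing by correlating deviations from the group means. Immobile p53 mKO and immobile control arrays of the same number correlated at 0.63, 0.54 and 0.84, and those of differing number at 0.32 or less. The labels state no pairing, so these arrays were treated as paired on this correlation alone. In the other comparisons some same-numbered arrays correlated at 0.1 or less. Alternatives were no filter, quantile normalization, background subtraction, trend and robust variances, array weights, 1 probe per gene, all 17 arrays in 1 fit, a replicate block, and each array left out.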

Additional observations from a re-analysis of the deposited data

Results flagged for a closer look

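Gclm in control plasmid array 4 read 10.52, against 9.99 to 10.08 in the other 3 control plasmid arrays. Its gap to the nearest array was 0.830 of the group's range, just past the critical value of Dixon's test for 4 samples. It was 1 of 36 probe and group pairs checked, and chance alone gives about 5% of such pairs. Srxn1 was highest in the same array on all 3 of its probes, at 10.57, 10.56 and 9.63.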

How the results depend on the processing

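Of 1104 values of member probes recomputed under the alternatives, 962 kept direction and side of the threshold, 83 lost their call, 28 gained one and 31 changed sign. The members called higher in immobile control limbs numbered 2 with no filter, 3 with background subtracted and 10 with array weights, against 5, and 0 to 6 with 1 array left out. Over all probes there were 1239 higher and 1601 lower in the 17-array fit, 1684 and 1796 with array weights, and 248 to 745 and 500 to 949 with 1 array left out. In immobile p53 mKO against mobile control limbs the members higher were 1 with no filter, 7 in the 17-array fit, 10 with array weights, against 4, and 0 to 2 with 1 array left out. All probes gave 1058 higher and 1435 lower in the 17-array fit, 1387 and 1534 with weights, and 169 to 328 and 375 to 563 with 1 array left out. In p53 plasmid muscles 3 members were lower with 1 probe per gene, against 8. In control plasmid against mobile control muscles 3 were lower with background subtracted, trend and robust variances, the 17-array fit or the replicate block, 2 with 1 probe per gene, against 5, and 3 to 6 with 1 array left out. The cause was not tested, beyond fewer probes with 1 probe per gene and fewer arrays when 1 is left out. Replicate numbers were treated as pairing immobile p53 mKO with immobile control arrays, by correlation only, and no other groups. The replicate block was run in every comparison. With it Gclm lost its call in immobile control against mobile control limbs (limma adjusted p = 0.070) and Nqo1 probe 1 gained one (0.040). Likewise in immobile p53 mKO against mobile control limbs Srxn1 probe 2 and Gclm lost theirs (both 0.061), and Nqo1 probe 1 (0.038) and Hmox1 (0.046) gained one. Srxn1 probe 3 lost its call in p53 plasmid muscles (0.054), and Keap1 probes 1 (0.060) and 2 (0.075) in control plasmid against mobile control muscles. It changed no other call. Sign changes touched uncalled values only. In immobile p53 mKO against immobile control limbs these were Prdx1 probe 1 with quantile normalization (0.0091), and Nqo1 probe 1 (-0.11) and Hmox1 (0.0018) with array weights. With 1 array left out there, ranges were -0.14 to 0.26 for Nqo1 probe 1, -0.0067 to 0.028 for Nqo1 probe 2, -0.52 to 0.26 for Srxn1 probe 1, -0.395 to 0.045 for Srxn1 probe 2, -0.062 to 0.038 for Prdx1 probe 1, -0.018 to 0.14 for Keap1 probe 2, -0.092 to 0.042 for Keap1 probe 3, -0.042 to 0.17 for Txnrd1, -0.46 to 0.062 for Hmox1, -0.067 to 0.17 for Gclm and -0.30 to 0.033 for Nfe2l2. Gclc ranged from -0.032 to 0.023 in immobile p53 mKO against mobile control limbs. In p53 plasmid against control plasmid muscles Gclc was -0.0019 with quantile normalization, -1.8e-07 with array weights and -0.0075 to 0.018 with 1 array left out, and Txnrd1 was -0.0042 to 0.062. Srxn1 probe 3 in control plasmid against mobile control muscles was -0.017 with the replicate block and -0.017 to 0.22 with 1 array left out. Dim probes near 8.3 to 8.7 lie close to the floor, which limits what their differences can show.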
